A study of Rattus norvegicus with 43 samples.

Results

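The amino acid transporter families are the membrane carriers of the Slc1, Slc3, Slc6, Slc7, Slc36, Slc38 and Slc43 families together with Slc16a10. The rule takes genes by symbol, from the table that pairs array probes with genes, and uses no measured value, but the families were picked with earlier results of these arrays known. The rule gave 52 genes, carried by 54 probes, of the 13337 gene symbols on the array. Of these, 13 belonged to Slc6, 14 to Slc7, 10 to Slc38, 6 to Slc1, 3 to Slc36, 3 to Slc43 and 2 to Slc3. The symbol rule also takes in carriers of other cargo: Slc6a2, Slc6a3 and Slc6a4 carry noradrenaline, dopamine and serotonin, Slc6a8 carries creatine, Slc6a6 carries taurine and Slc43a3 carries purine nucleobases.

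Cells take up amino acids through carriers with overlapping cargo. The heavy chains Slc3a2 and Slc3a1 do not transport by themselves but bring light chains of the Slc7 family to the membrane, among them Slc7a5, which exchanges leucine and other large neutral amino acids. When amino acids run short, uncharged transfer RNA activates the kinase Gcn2, translation of the transcription factor Atf4 rises, and Atf4 with C/EBP proteins induces amino acid synthesis and a subset of carriers. In skin, keratinocytes use carriers of neutral and cationic amino acids for protein synthesis and for the osmolytes of the outer layers. A list of 9 carriers known as targets of this amino acid response, mostly from mouse and human cells, was compared with the rest: Slc1a4, Slc1a5, Slc3a2, Slc6a9, Slc7a1, Slc7a3, Slc7a5, Slc7a11 and Slc38a2.

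The tissue was foreskin of Sprague Dawley rat pups whose mothers were gavaged daily on gestational days 16 to 20 with corn oil or with dibutyl phthalate (DBP), a plasticizer. Tissue was taken on gestational day 20 (GD20) or postnatal day 5 (PND5), and each array held RNA of 2 foreskins pooled from a litter, amplified and labelled with biotin, on an Illumina RatRef-12 beadchip. At GD20 the doses formed separate studies: 6 corn oil and 5 DBP arrays at 100 mg/kg/day (DBP100), and 6 corn oil and 5 DBP arrays at 500 mg/kg/day (DBP500). At PND5, 7 corn oil, 7 DBP100 and 7 DBP500 arrays shared 1 control group. All 7 groups shared the strain and the gavage days. The array number, not a count of reads, limits precision here.

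Arrays had median signals of 102.9 to 193.2 intensity units. They detected 10029 to 12078 of 22523 probes at a detection p under 0.05, and 24 to 36 of the 54 member probes. The brightest probe reached 40826 to 55729 units on the GD20 arrays. On the PND5 arrays it reached 15335 to 17753 units in replicates 1 to 4 and 20110 to 29459 in replicates 5 to 7. These are treated as 2 array sets, inferred from the signals alone, since no label or file header names them. Markers of the tissue were present: the 4 basal epidermal genes measured, Krt14, Krt15, Itgb4 and Col17a1, and the 7 fibroblast genes, Col1a1 among them, were detected on all 43 arrays. Values below are log2 signals after background correction and quantile normalization, and differences are on that log2 scale with the standard error (SE) of a limma fit to all 43 arrays. A member passed at an adjusted p under 0.05, and p-values were adjusted over all 13577 probes tested. Levels of different genes are not compared, because a probe's signal depends on its sequence.

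Of the 54 member probes, 40, each of a different gene, were detected on at least 5 arrays and were tested, and 14 were not. All 6 Slc1, both Slc3, all 3 Slc36 genes and Slc16a10 were tested, against 10 of 14 in Slc7, 9 of 13 in Slc6, 7 of 10 in Slc38 and 2 of 3 in Slc43. Member probes were detected on all 43 arrays in 18 cases (33.3%), a share close to the 33.4% of all probes. Slc7a11, the cystine exchanger and a member of the target list, was detected on 0 arrays, as were the probes of Slc6a5, Slc6a11, Slc6a18, Slc7a13 and Slc38a8. Slc7a8, Slc7a15, Slc6a13, Slc38a5, Slc38a9 and Slc43a2 were detected on 1 to 3 arrays. The second probes of Slc1a5 and Slc36a3 were each detected on 1 array, so 1 probe of each gene was tested. All counts below are over the 40 tested genes, 8 of them in the target list.

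At GD20, directly after dosing with 500 mg/kg/day, no member passed, but the target list lay apart from the rest of the families in its estimates. The count that passed was 0 of 40, where 0.302% of all probes passed. The median difference of the 8 targets was 0.44, against -0.10 for the other 32 members and 0.00 for all probes. Of the targets, 7 had an estimate above 0, where 50.4% of all probes did, and Slc1a5 stood at 0.00. An unadjusted p under 0.05 in the upward direction was reached by 6 of 8 targets (Slc3a2, Slc7a1, Slc7a5, Slc6a9, Slc38a2 and Slc1a4), against 3.82% of all probes and 1 of the 32 other members. Slc1a4 counts in these figures and in the median, although it was detected in only 1 of 5 exposed and 0 of 6 control litters. The list is a description here, since it was chosen with earlier results of these arrays known. With the authors' own processed values in place of the signals, Slc3a2 (adjusted p = 0.0366), Slc7a1 (adjusted p = 0.0375) and Slc7a5 (adjusted p = 0.0379) passed. With arrays scaled to a common median their estimates were 0.44, 0.46 and 0.60, with adjusted p = 1.0, 0.982 and 0.723. With the controls of both GD20 studies pooled, Slc6a9 passed upward (0.64, adjusted p = 0.0433) and Slc38a4, which is no target, downward (-0.49, adjusted p = 0.0433).

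**Figure D1:**
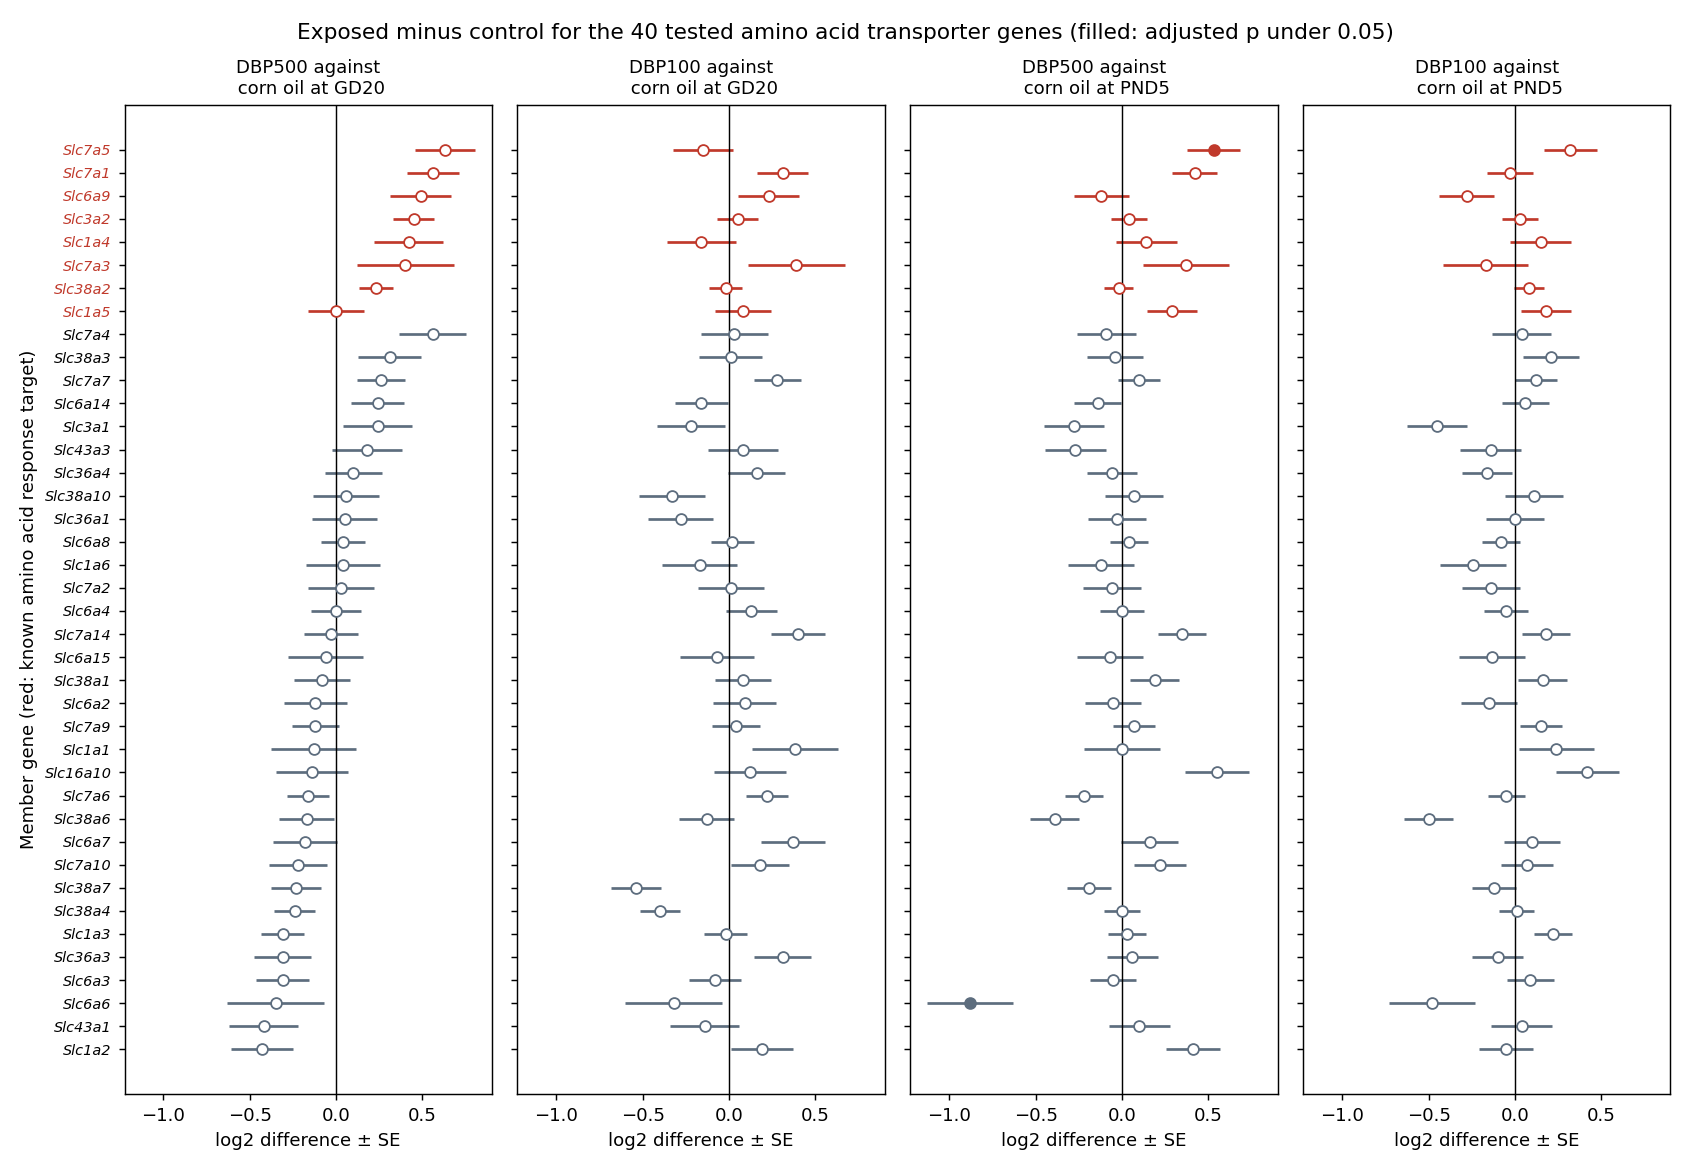
Log2 difference between exposed and control litters (x axis, bars show the SE) for the 40 tested amino acid transporter genes (y axis), 1 panel per dose and age; known amino acid response targets are in red and filled points passed at an adjusted p under 0.05. In the DBP500 panel of GD20, 7 of the 8 red points lie above 0, and the only filled points of the 4 panels are Slc7a5 and Slc6a6 for DBP500 at PND5.

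Slc3a2, the heavy chain, had values of 11.17, 11.52, 11.59, 11.53 and 11.55 in the exposed litters, and its 6 controls ranged from 10.88 to 11.16 with a median of 11.01. All 5 exposed litters lay above every control of the same study, replicate 1 only just. Without that litter the difference was 0.53 and passed (adjusted p = 0.0445). This was the only 1 of 11 fits without a single array in which Slc3a2 passed, with adjusted p up to 0.268 in the others. The difference was 0.45 (SE 0.119, 1.37-fold, adjusted p = 0.105). Slc7a5, its leucine-carrying light chain, was at 8.91, 9.19, 9.44, 9.31 and 9.43 against 8.31 to 8.91 in controls (median 8.67). The lowest exposed litter met the highest control of the same study and the other 4 exceeded all controls of that study. The difference was 0.63 (SE 0.174, 1.54-fold, adjusted p = 0.151). The corn oil litters of the DBP100 study ran from 8.48 to 9.38 for Slc7a5 (median 8.96), covering the exposed values of 8.91, 9.19 and 9.31. For Slc3a2 those litters ran from 11.01 to 11.35, covering the exposed value of 11.17.

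Slc7a1, the main carrier of arginine and lysine into most cells, reached 8.15, 8.21, 8.33, 8.13 and 8.36 in the exposed litters, where controls of the same study ran from 7.18 to 8.02 (median 7.72). The groups did not overlap, with a difference of 0.56 (SE 0.15, 1.47-fold, adjusted p = 0.123). The controls of the DBP100 study, which received corn oil too, lay between 7.79 and 8.59 and spanned all 5 exposed values. With the controls of both studies pooled, the Slc7a1 difference was 0.31 (adjusted p = 0.333). Slc38a2, a sodium-coupled carrier of alanine, glutamine and other small neutral amino acids, measured 13.49, 13.59, 13.69, 13.68 and 13.58 against 13.27 to 13.46 in controls (median 13.38). Here too the groups were separate, by a small step of 0.23 (SE 0.097, adjusted p = 0.576). The DBP100 study's controls reached 13.55 for Slc38a2, inside the exposed range.

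Slc6a9, the glycine carrier GlyT1, had exposed values of 7.51, 7.77, 7.66, 7.80 and 7.23, against controls from 6.79 to 7.32 (median 7.12). Replicate 5 lay within the control range and the others above it, for a difference of 0.49 (SE 0.178, adjusted p = 0.399). Slc7a3, a second cationic carrier, was at 8.38, 8.63, 9.06, 8.65 and 9.19 with controls at 7.96 to 8.58 (median 8.46). All exposed litters but replicate 1 exceeded every control, and the difference was 0.40 (SE 0.281, adjusted p = 0.873). Slc1a4, a carrier of alanine, serine and cysteine, was detected in 1 of 5 exposed and 0 of 6 control litters, so no difference is given (adjusted p = 0.643). Slc1a5, the glutamine carrier ASCT2, overlapped fully, with 8.47 to 8.79 in exposed and 8.27 to 8.79 in control litters.

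Groups that did not overlap in the upward direction were found for 4 of 8 targets (Slc3a2, Slc7a1, Slc38a2 and Slc1a4) and 0 of the other 32 members, against 0.987% of all probes. For Slc1a4 the separation lies mostly between values below detection. Among those others, Slc7a4, a relative of the cationic carriers, was detected in 2 of 5 exposed litters (6.39 and 6.18) and in 0 of 6 controls. With controls raised to the detection limit and exposed signals as measured, it was 1.01-fold higher (adjusted p of the fitted difference = 0.334). This is not a firm lower bound, since the remaining exposed litters were undetected too. In the downward direction an unadjusted p under 0.05 was reached by 5 of the 32, where 3.56% of all probes reached it. Named here after their values were seen, they were the glutamate carriers Slc1a2 (-0.43) and Slc1a3 (-0.31), Slc38a4 (-0.24), Slc43a1 (-0.42) and the dopamine carrier Slc6a3 (-0.31). Slc1a2 and Slc43a1 were each detected in 3 of 5 exposed and 6 of 6 control litters, and Slc6a3 in 2 of 5 and 5 of 6. The sizes of these 3 are therefore uncertain. Slc38a4 was at 9.35 to 9.39 in all 5 exposed litters and at 9.35 to 9.76 in controls, with 1 control at the exposed level. Other light chains that pair with Slc3a2 did not share the estimate of Slc7a5: Slc7a7 stood at 0.26, Slc7a6 at -0.16 and Slc7a10 at -0.22, none of them passing. Slc3a1, the other heavy chain, was at 0.24 and its partner Slc7a9 at -0.12, both mostly below detection. Slc3a1 was detected in 1 of 5 exposed and 0 of 6 control litters, and Slc7a9 in 0 of 5 and 1 of 6.

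**Figure D2:**
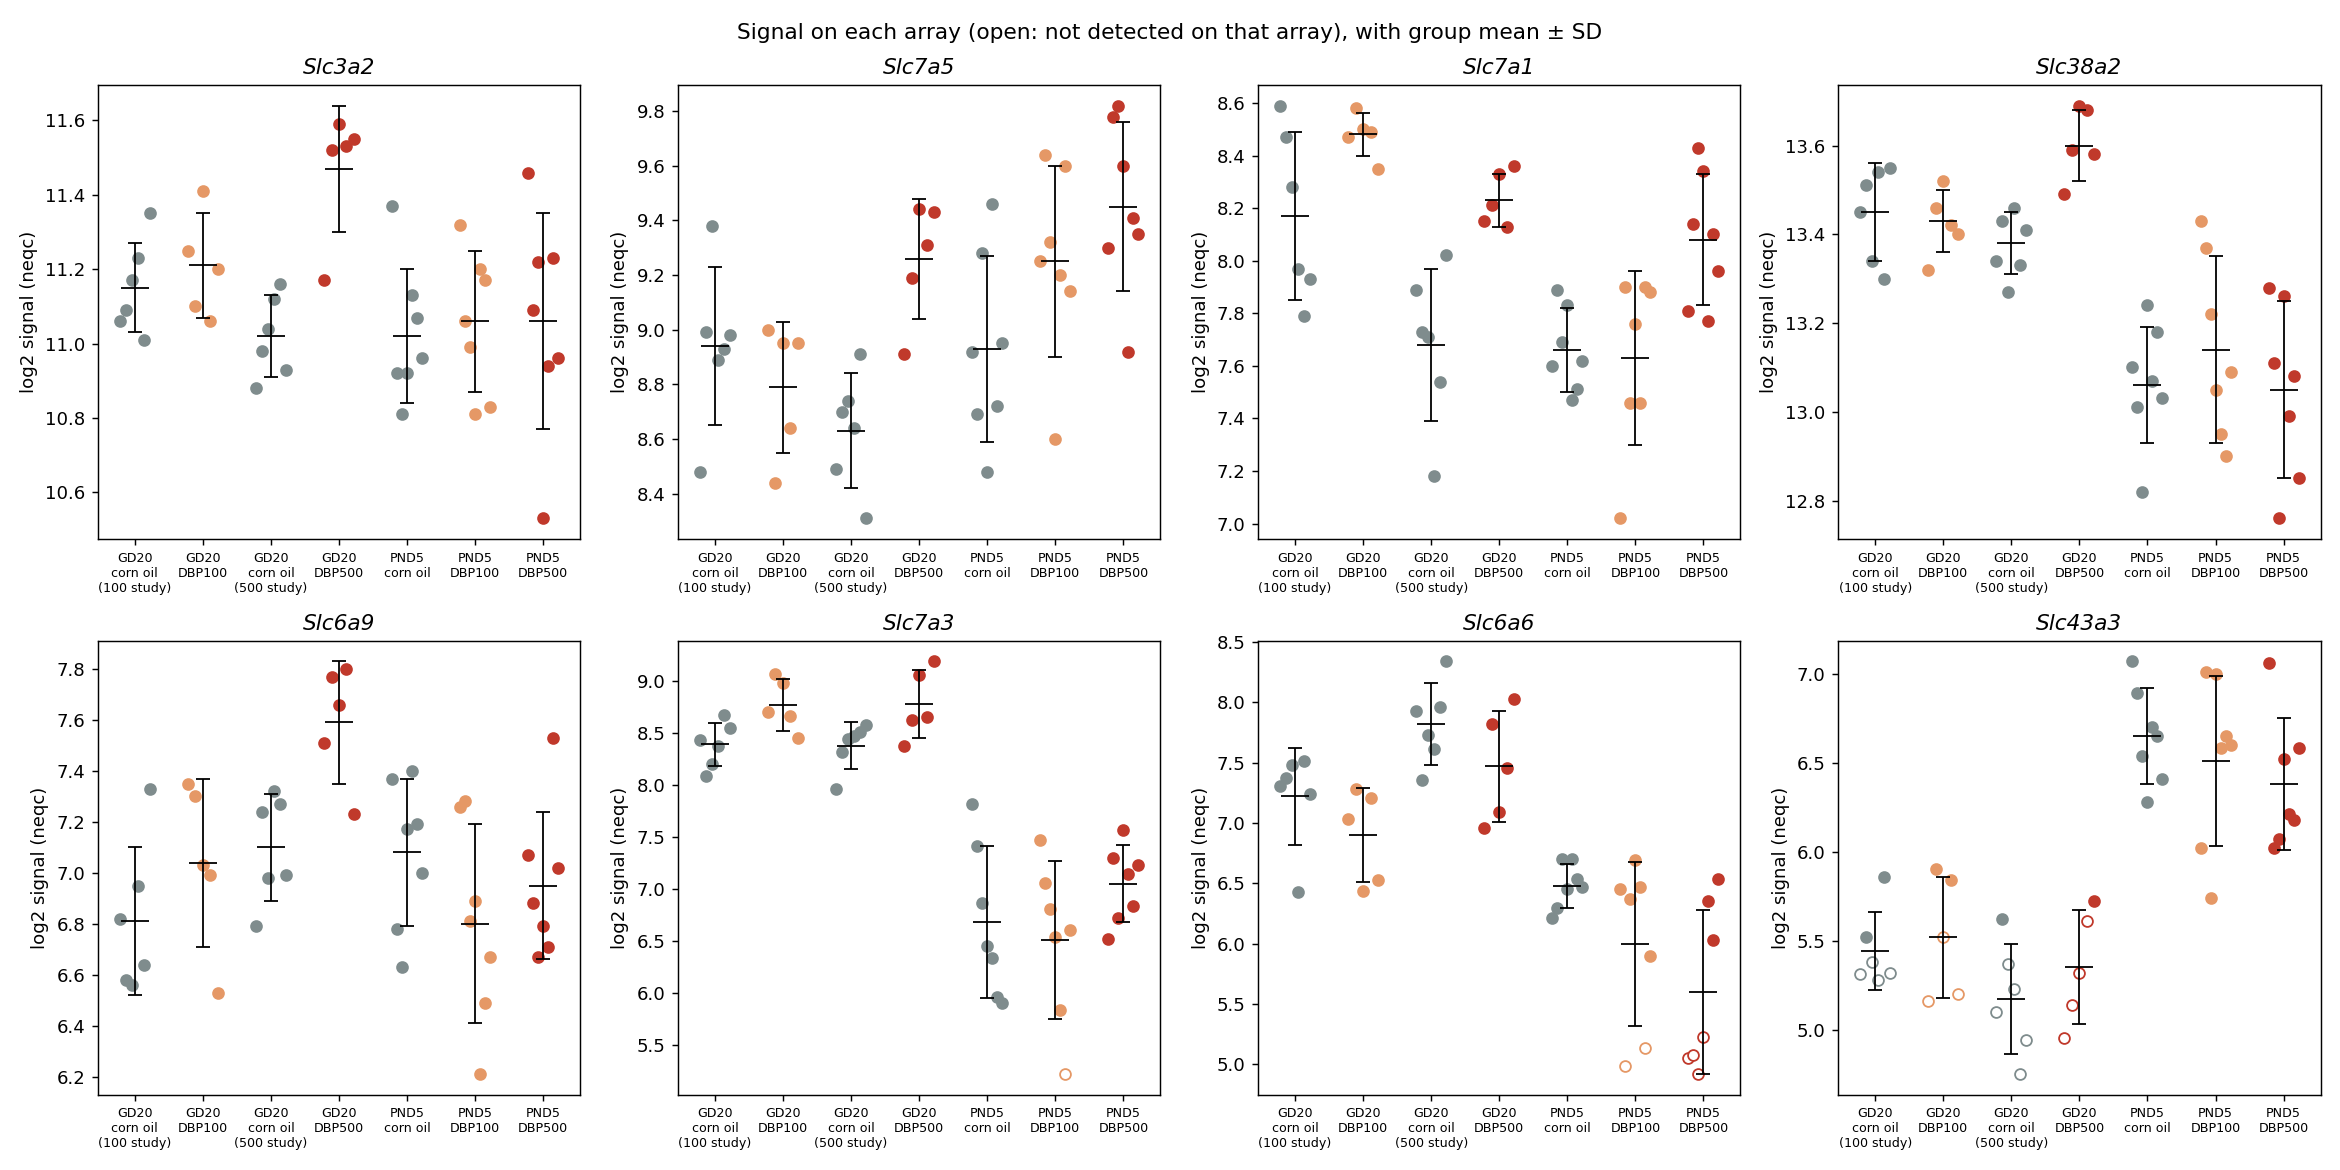
Log2 signal (y axis) of 8 members on each of the 43 arrays, by group (x axis); bars show the group mean and SD, and open points mark arrays on which the probe was not detected. Slc3a2, Slc7a1 and Slc38a2 lie above all controls of the same study in the 5 GD20 DBP500 litters, Slc6a6 is undetected in 4 PND5 DBP500 litters, and Slc43a3 is higher at PND5 than at GD20.

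Genes of the amino acid response outside the carriers gave calls in the same comparison. This effector list too was chosen with earlier results of these arrays known, so its counts here and below are a description. Of 25 tested effectors, 5 rose and 0 fell, where 0.177% of all probes rose. They were Nupr1, a stress-induced nuclear protein (1.5, adjusted p = 1.16e-05), Asns, which makes asparagine (1.45, adjusted p = 9.18e-06), the peptide hormone Adm2 (adjusted p = 0.00141), the transcription factor Atf5 (0.71, adjusted p = 0.0385) and Psph of serine synthesis (0.65, adjusted p = 0.00821). Adm2 was detected in 5 of 5 exposed and 0 of 6 control litters. Asns lay between 7.64 and 8.23 in the exposed litters and between 6.03 and 6.98 in the controls. The other effectors did not pass, among them Atf4 (0.33, adjusted p = 0.510), Ddit3 (0.09), Trib3 (0.17) and Chac1 (0.19). Of 10 tested amino acid and peptide carriers outside the families, among them Slc15 and Slc25 genes, 0 passed and the median was 0.00. Markers of cell types were also read in this comparison. All 7 skeletal muscle genes measured had negative estimates (median -0.92), none passing, and their summed signal was 946 to 1834 units in exposed and 1139 to 4399.6 units in control litters. All 3 smooth muscle genes had negative estimates, 1 of them passing, with summed signals of 644 to 807 against 1053 to 1188 units. All 8 differentiated epidermis genes had positive estimates (median 0.35, none passing), with summed signals of 9809 to 15495 against 7743 to 12109 units. Of 5 leukocyte and macrophage genes, 4 had negative estimates, none passing, with summed signals of 1995 to 2565 against 2572 to 3433 units. All 5 erythroid genes had positive estimates (median 0.19, none passing). Of 7 fibroblast genes, 4 had positive estimates, and 1 passed upward. No marker of the remaining cell types passed. The part of tissue makeup in the carrier estimates was not tested, and in pooled tissue fewer cells of a type and less RNA per cell cannot be told apart.

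Promoter sequence was examined for the carriers because amino acid response elements carry the core TGATGNAA, bound by Atf4 with C/EBP proteins. The 250 bases before the transcription start are shown for the target genes with a match, Slc7a1 (chr12:11664238-11664487, plus strand) and Slc1a4 (chr14:98761563-98761812, minus strand), for the only other member with one, Slc38a1 (chr7:129681402-129681651, minus strand), and for Slc7a5 (chr19:66872413-66872662, minus strand), which has none in this window. Sequences and coordinates are those of RefSeq on GRCr8, read 5′ to 3′ on the gene's strand, and capitals mark a match to TGATGNAA or, on the opposite strand, TTNCATCA.
Slc7a1: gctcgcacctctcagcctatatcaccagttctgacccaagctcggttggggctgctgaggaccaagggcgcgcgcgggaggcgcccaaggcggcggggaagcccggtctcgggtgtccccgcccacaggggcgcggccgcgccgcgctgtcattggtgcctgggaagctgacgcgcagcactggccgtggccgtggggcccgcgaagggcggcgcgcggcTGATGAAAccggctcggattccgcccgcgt
Slc1a4: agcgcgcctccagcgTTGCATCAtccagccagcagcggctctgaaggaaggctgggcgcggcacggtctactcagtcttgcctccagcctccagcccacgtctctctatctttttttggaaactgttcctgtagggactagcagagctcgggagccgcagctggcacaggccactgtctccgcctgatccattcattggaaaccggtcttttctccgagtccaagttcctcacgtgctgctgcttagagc
Slc38a1: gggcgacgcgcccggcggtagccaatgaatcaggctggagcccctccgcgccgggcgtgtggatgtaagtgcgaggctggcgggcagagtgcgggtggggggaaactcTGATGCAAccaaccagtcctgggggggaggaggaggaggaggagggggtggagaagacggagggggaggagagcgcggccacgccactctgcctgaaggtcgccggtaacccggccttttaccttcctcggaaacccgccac
Slc7a5: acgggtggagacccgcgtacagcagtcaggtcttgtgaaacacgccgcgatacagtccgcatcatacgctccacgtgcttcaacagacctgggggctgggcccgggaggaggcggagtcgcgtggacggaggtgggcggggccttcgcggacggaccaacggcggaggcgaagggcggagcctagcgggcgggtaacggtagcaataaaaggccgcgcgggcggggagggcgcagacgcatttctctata
The match began at position -30 from the start in Slc7a1, at -142 in Slc38a1 and at -235 in Slc1a4, there on the opposite strand. Promoters of 300 bases, 250 before and 50 after the start, were given for 39 of the 52 member genes. Of these member promoters 3 of 43 (6.98%) held a match, against 1332 of 33469 promoters of all genes (3.98%). Among target genes, 2 of 7 had one. A match is a run of letters and not a measured binding site, and response elements can lie outside this window.

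At 100 mg/kg/day on GD20 the target list did not stand out, and 0 of 40 members passed, where 0.589% of all probes did. The median over the targets was 0.07, and 5 of 8 had estimates above 0, against 55.1% of all probes. Slc7a5 was at -0.15 with overlapping groups, Slc3a2 at 0.05, Slc38a2 at -0.02 and Slc1a5 at 0.08. Slc6a9 was at 0.23 and Slc7a3 at 0.39, neither passing. Slc7a1 was at 0.31 (SE 0.15, adjusted p = 0.437), with 8.47, 8.58, 8.50, 8.49 and 8.35 inside a control range of 7.79 to 8.59. The smallest p of any member belonged to Slc38a7, a lysosomal glutamine exporter (adjusted p = 0.0643). It was detected in 3 of 6 controls and in 0 of 5 exposed litters, so its size is not measured, and all 5 exposed values lay below every control, as for 0.265% of all probes. Over the 11 fits without a single array its adjusted p ran from 0.0327 to 0.284, and it passed in 3 of them, without corn oil replicate 6, DBP100 replicate 4 or DBP100 replicate 5. Slc38a4, a carrier of neutral amino acids that is imprinted in mouse, was next at -0.40 (SE 0.117, adjusted p = 0.0959). Its exposed litters measured 9.51, 9.58, 9.41, 10.11 and 9.99 against 9.87 to 10.42 in controls, 3 of 5 below every control. It passed without DBP100 replicate 4 (-0.50, adjusted p = 0.0106), without replicate 5 (-0.47, adjusted p = 0.0287) and with the authors' processed values (-0.36, adjusted p = 0.0441). Over the 11 fits without a single array its adjusted p ran from 0.0106 to 0.448. It stood at -0.14 (adjusted p = 0.716) with the controls of both studies pooled. Slc7a14 (0.40) and Slc7a7 (0.28) followed, neither passing. In the same litters 6 of 8 differentiated epidermis genes had negative estimates, none passing, with summed signals of 9420 to 17609 units against 15202 to 25342 in controls, and their part in the carrier estimates was not tested.

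The difference between the 500 and the 100 mg/kg/day estimates at GD20 was tested directly, each dose against its own controls. It passed for 0 of 40 members, where 0.133% of all probes passed. Targets had estimates above 0 in 7 of 8 cases, against 47.3% of all probes. For Slc7a5 it was 0.77 (95% interval 0.28 to 1.27, adjusted p = 0.203), and for Slc3a2 0.40 (0.06 to 0.74, adjusted p = 0.370). For Slc7a1 the interval, -0.18 to 0.68, covered 0. Of the 25 effectors, 3 passed upward, where 0.0737% of all probes did: Nupr1 (1.43, adjusted p = 0.0401), Asns (1.18, adjusted p = 0.0440) and Adm2 (adjusted p = 0.0440). The doses were run as separate studies, so dose and study cannot be told apart where the controls of the studies differ.

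The controls of the 2 GD20 studies did differ, for carriers about as often as for all probes. Of 40 members 10 passed between them, 6 higher and 4 lower in the DBP500 study, where 22% of all probes did (10.3% higher and 11.7% lower). Slc43a1, a carrier of branched-chain amino acids, was at 5.80 to 6.54 in the DBP500 study's controls and at 5.11 to 5.80 in those of the DBP100 study, a difference of 0.88 (adjusted p = 0.000873) that was 0.29 with a common median and 0.36 without background correction. Slc6a15 (0.71), Slc6a2 (0.69), Slc7a10 (0.60), Slc7a7 (0.59) and Slc6a3 (0.57) were higher as well. In the DBP100 study's controls Slc6a15 was detected on 3 of 6 arrays, and Slc6a2 and Slc6a3 on 1 of 6, so these sizes are uncertain. The lowest estimates of these genes under the alternatives were 0.22, 0.21 and 0.21. Slc6a15, Slc6a2, Slc6a3 and Slc7a10 each lost the call in 1 alternative (adjusted p up to 0.136), and Slc7a7 in none. Slc38a10 (-0.53), Slc38a4 (-0.51) and Slc7a1 (-0.49) were lower, and so was Slc1a4 (adjusted p = 0.00829), detected in 3 of 6 controls of the DBP100 study and 0 of 6 of the other, for which no size is given. Slc38a10 lost its call (adjusted p up to 0.0983) without corn oil replicate 3, 4 or 5 of the DBP100 study or replicate 2, 5 or 6 of the DBP500 study. The step of Slc7a1 between unexposed litters, -0.49, stands beside its DBP500 estimate of 0.56. Among the effectors, Asns (0.58, adjusted p = 0.0133) was higher and Nupr1 (-0.71, adjusted p = 0.00488) lower in the DBP500 study's controls. All 8 differentiated epidermis genes had negative estimates there, 5 of them passing, and their part was not tested. With each array only scaled to a common median, 4 of these members passed.

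At PND5, in litters exposed to 500 mg/kg/day before birth, Slc7a5 rose and Slc6a6 fell. These were 2 of 40 members, where 3.67% of all probes passed, a share near the background. Slc7a5 ran from 8.92 to 9.82 in exposed litters (median 9.41), with controls from 8.48 to 9.46 (median 8.92). The groups overlapped, 3 of 7 exposed litters exceeding every control. Slc7a5 was higher by 0.53 (SE 0.153, 1.44-fold, adjusted p = 0.0429).

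Slc6a6, the taurine carrier, which supplies an osmolyte of the epidermis, measured 5.05, 5.08, 4.92 and 5.23 in exposed replicates 1 to 4 and 6.35, 6.03 and 6.54 in replicates 5 to 7. Controls ranged from 6.21 to 6.70 (median 6.47) and were detected on all 7 arrays. The 4 low exposed values were all below detection, and 5 of 7 exposed litters lay below every control. The fitted difference of -0.88 (SE 0.248, adjusted p = 0.0370) takes in those 4 arrays, so it is given without a fold. At 100 mg/kg/day it was undetected in 2 of 7 litters, for an estimate of -0.48 (adjusted p = 0.496).

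Both PND5 calls came with unequal estimates in the 2 array sets. Within replicates 1 to 4, Slc7a5 differed by 0.78 and Slc6a6 by -1.35, and within replicates 5 to 7 by 0.19 and -0.26. The test of the difference between the sets passed for 0 of 40 members (smallest adjusted p = 0.342). Slc7a1 stood at 0.43 and 0.41 in the sets, while Slc7a3 was at -0.11 and 1.0. Each kept its call in 5 of the 14 fits that left out a single array. Slc7a5 (adjusted p from 0.0208 to 0.117) lost it without corn oil replicate 2, 4, 6 or 7 or DBP500 replicate 1, 2, 3, 4 or 6. Slc6a6 (adjusted p from 0.00942 to 0.108) lost it without corn oil replicate 3, 4, 5, 6 or 7 or DBP500 replicate 1, 2, 3 or 4. With arrays scaled to a common median in place of background correction and quantile normalization, Slc7a5 stood at 0.40 (adjusted p = 0.411) and Slc6a6 at -0.37 (adjusted p = 0.398). Slc6a6 was at -0.38 without background correction and -0.41 with the authors' values, and passed in neither.

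**Figure D3:**
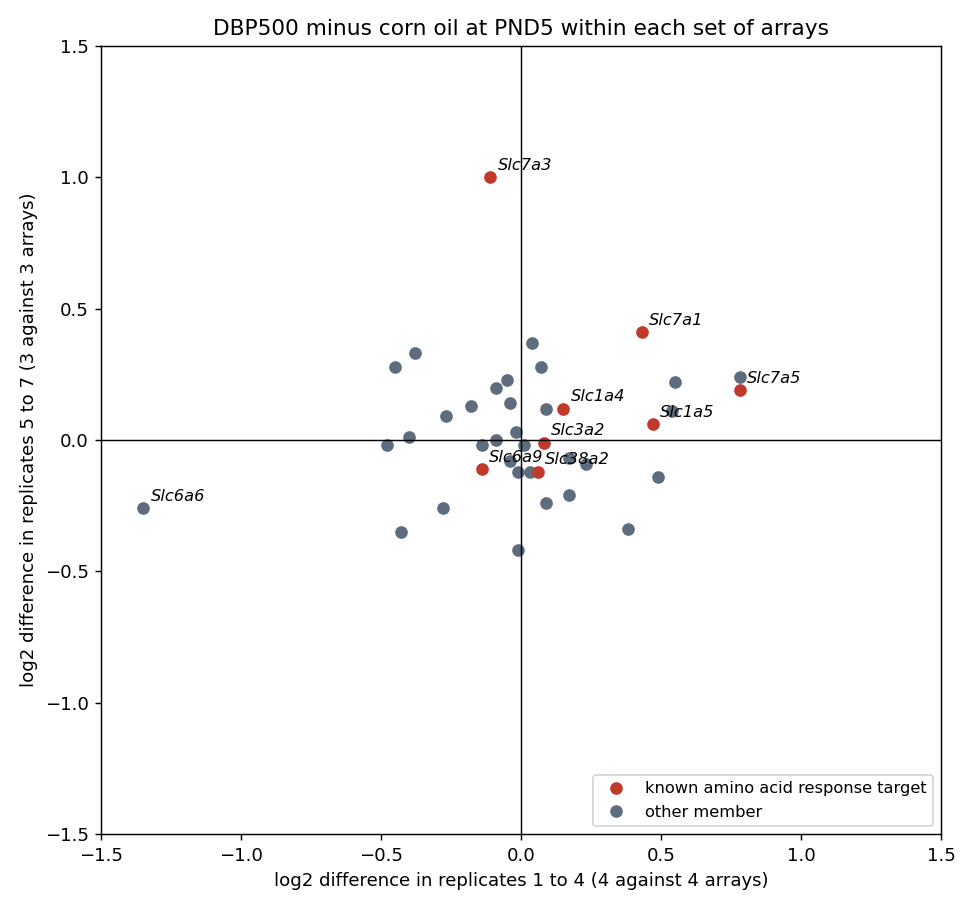
Log2 difference between DBP500 and corn oil litters at PND5 for the 40 tested members, in replicates 1 to 4 (x axis) and in replicates 5 to 7 (y axis); known targets are in red. Slc7a5 and Slc6a6 lie far from 0 on the x axis (0.78 and -1.35) and near it on the y axis (0.19 and -0.26), whereas Slc7a1 is at 0.43 and 0.41.

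Over the 8 targets at PND5 the median was 0.22, against -0.02 for the other members, and 6 of 8 targets lay above 0, where 53.7% of all probes did. Slc7a1 ran from 7.77 to 8.43 in exposed litters (median 8.10) and from 7.47 to 7.89 in controls (median 7.62), with 5 of 7 above every control. The difference of 0.42 (SE 0.132, adjusted p = 0.0632) did not pass. Slc7a3 was at 0.37, Slc1a5 at 0.29, Slc1a4 at 0.14 and Slc6a9 at -0.12, none passing. The heavy chain Slc3a1 was at -0.28. Slc3a2 was at 0.04 with an interval of -0.17 to 0.25, and Slc38a2 at -0.02 (-0.19 to 0.16), both intervals covering 0. Of 25 effectors, 1 rose at PND5, where 1.49% of all probes rose: Herpud1 of the endoplasmic reticulum (0.45, adjusted p = 0.0173). Markers of red cells moved as well: all 5 erythroid genes had positive estimates (median 0.70, 1 passing), with summed signals of 17648 to 34228 units in exposed and 9906 to 22229 units in control litters. Their part in the carrier differences was not tested.

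Slc16a10, which carries aromatic amino acids, is described although it was singled out after its values were seen. At DBP500 it ran from 6.37 to 7.38 (median 6.90) and at DBP100 from 6.05 to 7.01 (median 6.78), against 5.82 to 6.57 in the controls both doses share (median 6.39). At each dose 5 of 7 litters exceeded every control. The estimates of 0.55 (adjusted p = 0.0814) and 0.42 (adjusted p = 0.397) did not pass.

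At PND5 after 100 mg/kg/day, 0 of 40 members passed, where 0.081% of all probes passed. Slc38a6, a carrier of neutral amino acids, had the smallest p, at -0.50 (SE 0.14, adjusted p = 0.133), and 5 of its 7 exposed litters lay below every control. The same gene was at -0.39 for DBP500, against the same controls. Slc3a1 was at -0.45 (adjusted p = 0.311) and Slc7a5 at 0.32 (adjusted p = 0.452). The target median was 0.06, and all 5 erythroid genes had positive estimates here too (median 0.47, none passing).

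Set directly against each other at PND5, the doses differed for 0 of 40 members, where 0.0516% of all probes passed. Slc7a1 had the smallest p, higher at DBP500 by an estimate of 0.45 (95% interval 0.19 to 0.72, adjusted p = 0.269). Its DBP100 litters lay between 7.02 and 7.90, and 5 of 7 DBP500 litters exceeded them all. For Slc7a5 the estimate was 0.20 (-0.11 to 0.51). Slc1a2 was at 0.46 and Slc7a3 at 0.54, neither passing. Within replicates 1 to 4 alone, 2 members passed, among them Slc7a1 (0.65, adjusted p = 0.0337).

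The DBP500 effect at GD20 was also tested against the one at PND5, and 0 of 40 members passed, where 0.412% of all probes did. Slc1a2, the glutamate carrier of astrocytes in brain, came nearest: its estimates of -0.43 at GD20 and 0.41 at PND5 gave a difference of -0.84 (SE 0.238, adjusted p = 0.0943). It passed in 1 of 25 fits without a single array, that without GD20 DBP500 replicate 5 (adjusted p = 0.0433, in the others up to 0.200). The Slc1a2 difference shrank to -0.29 (adjusted p = 0.869) with a common median, -0.34 without background correction and -0.32 with the authors' values. Slc1a2 was detected in 3 of 5 DBP500 litters at GD20 and 5 of 7 controls at PND5, so its size is uncertain. In the target list, Slc6a9 differed by 0.62 (95% interval 0.14 to 1.10) and Slc3a2 by 0.41 (0.09 to 0.74), both with adjusted p = 0.236. For Slc7a5 the difference between the ages was 0.10 (-0.37 to 0.57) and for Slc7a1 0.14 (-0.27 to 0.54).

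Unexposed litters of the 2 ages differed in carriers about as often as in all probes. Of 40 members 25 passed between corn oil litters of PND5 and of GD20, 7 higher and 18 lower at PND5, against 61.6% of all probes (26.7% higher and 34.9% lower). Age lies with study and with array set here and cannot be told apart from them. Against each GD20 study's controls on its own, 16 members passed with the same sign, 5 higher and 11 lower, where 42.9% of all probes did. Scaled to a common median, the whole table split into 2702 higher and 5481 lower probes, in place of 3624 and 4744, and the median of all probes moved from -0.09 to -0.12.

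The largest fall was in Slc7a3, a cationic carrier of the target list. Its 12 GD20 controls lay between 7.96 and 8.67 (median 8.44) and the 7 PND5 controls between 5.90 and 7.82 (median 6.45). All PND5 litters were below all GD20 litters, and the difference was -1.71 (SE 0.221, 3.26-fold, adjusted p = 9.97e-09). Slc38a2 fell less, by 0.35 (SE 0.077, adjusted p = 0.000117), from 13.27 to 13.55 at GD20 to 12.82 to 13.24 at PND5, again without overlap. These were the 2 members without overlap in that direction, where 10.2% of all probes had none. Slc1a5 (-0.49, adjusted p = 0.00107) and Slc7a1 (-0.27, adjusted p = 0.0478) were the other targets that fell, and 0 targets rose. For Slc7a1 the difference was -0.51 against the DBP100 study's controls and -0.02 against those of the DBP500 study. Its call was also lost with a common median (adjusted p = 0.105) and in 12 of 19 fits without a single array, and held only without corn oil replicates 4, 5 or 6 of the DBP100 study, 4 or 5 of the DBP500 study, or 2 or 4 of PND5. Slc7a3 was at -1.14 with a common median and -1.07 without background correction, and Slc38a2 at -0.93 with a common median, all passing. A common median leaves the wider signal range of the GD20 arrays in place. The part of that range in the larger Slc38a2 fall was not tested.

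Among the other members, Slc6a6 fell by 1.04 (adjusted p = 8.39e-05), from a GD20 range of 6.43 to 8.34. Slc38a4 fell by 0.80 (adjusted p = 5.93e-10), Slc7a7, the light chain for cationic amino acid export, by 0.68 and Slc7a6, its close relative, by 0.63. Slc6a3 (-0.71) and Slc7a9 (-0.46) were detected on 0 of 7 PND5 control arrays. With those arrays raised to the detection limit and GD20 signals as measured, the falls were 1.05-fold and 1.08-fold. These are not firm lower bounds, since GD20 control arrays were undetected too. Slc6a3 was detected on 1 of 6 of the DBP100 and 5 of 6 of the DBP500 study, and Slc7a9 on 4 of 6 and 1 of 6. The glutamate carrier Slc1a2 (-0.59) and Slc38a6 (-0.53) also passed, and against each study's controls too. With a common median Slc6a6, Slc7a7, Slc1a2 and Slc38a6 still passed, at -0.56, -0.43, -0.19 and -0.30. Slc6a15 (-0.50) and Slc16a10 (-0.40) passed against the mean of both control groups but not against the DBP100 study's controls, where they were at -0.14 (adjusted p = 0.565) and -0.17 (adjusted p = 0.452), while the DBP500 study's controls gave -0.85 and -0.62. Slc16a10 also lost its call with a common median (adjusted p = 0.305) and without corn oil replicate 1 or 4 of the DBP100 study, 2 of the DBP500 study, or 1, 2 or 4 of PND5 (adjusted p up to 0.102). Slc43a1, singled out after its values were seen, passed at -0.39 but went from 0.05 to -0.83 with the choice of GD20 controls, and lost its call without corn oil replicate 4 of the DBP100 study or 3 of PND5 (adjusted p up to 0.0712) or with a common median (adjusted p = 0.155).

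Slc43a3, the nucleobase carrier, was at 4.75 to 5.86 in GD20 controls, where 3 of 12 arrays detected it, and at 6.28 to 7.07 (median 6.65) at PND5, on all 7 arrays. Slc43a3 rose (fitted difference 1.34, SE 0.158, adjusted p = 1.10e-09), but with most GD20 arrays below detection the size is uncertain: it was 0.61 with a common median and 0.59 without background correction. Slc6a14, a carrier of neutral and cationic amino acids found in epithelia, rose by 1.03 (adjusted p = 1.20e-09), from 4.89 to 5.69 at GD20, where 2 of 12 arrays detected it, to 5.98 to 6.60 at PND5, and was at 0.44 and 0.43 in those settings. The creatine carrier Slc6a8 rose by 0.58 (adjusted p = 2.61e-06), from 9.54 to 9.99 to 10.09 to 10.68, and each of these 3 genes was higher in 7 of 7 PND5 litters than in any GD20 control, where 10.8% of all probes were. With a common median Slc6a8 was at 0.19 and did not pass (adjusted p = 0.215). Slc3a1 (0.73) and Slc7a2 (0.48), each detected on 1 of 12 GD20 control arrays, rose too and were at 0.33 and 0.21 with a common median, while Slc7a9, the partner of Slc3a1 for cystine, fell. Slc1a1 passed at 0.49 but was at 0.24 (adjusted p = 0.385) against the DBP500 study's controls, and lost its call without background correction (adjusted p = 0.0511) and without corn oil replicate 2 of the DBP100 study or 2 or 7 of PND5 (adjusted p up to 0.0887). Slc38a1 passed at 0.29 but was at 0.24 (adjusted p = 0.170) against the DBP100 study's controls and at 0.12 (adjusted p = 0.390) with a common median. It lost its call in 11 of 19 fits without a single array (adjusted p up to 0.110), those without corn oil replicates 1 or 2 of the DBP100 study, 1 to 4 of the DBP500 study, or 1 to 5 of PND5. Tissue markers moved strongly between the same arrays: 7 of 7 skeletal muscle genes rose (median 3.67), 6 of 8 differentiated epidermis genes rose (median 2.10) and 5 of 5 erythroid genes fell (median -2.44). Summed muscle marker signal ran from 866 to 7222 units over the GD20 controls and from 14080 to 33832 units at PND5. The part of these markers in the carrier differences was not tested.

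**Figure D4:**
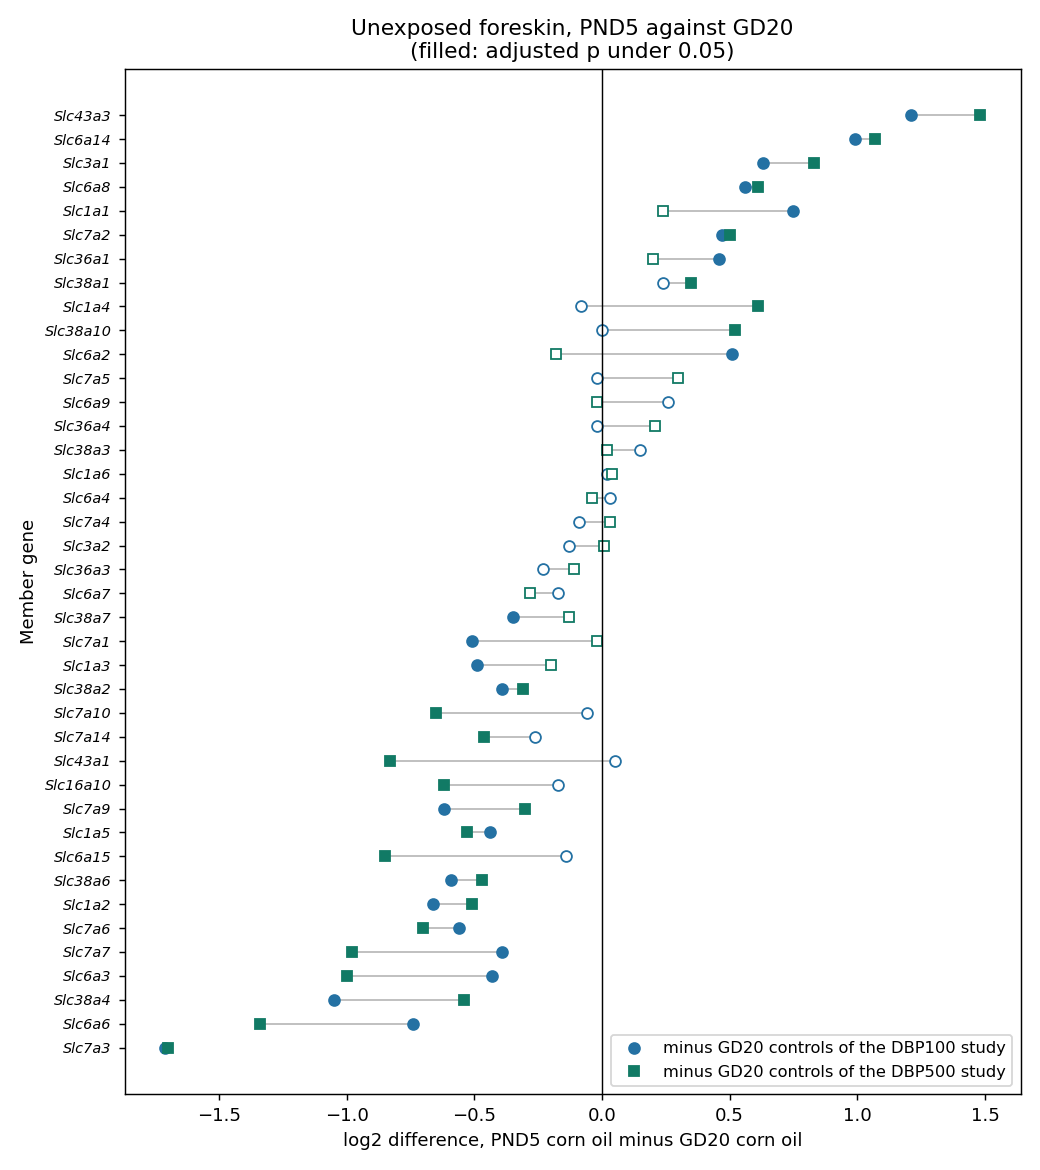
Log2 difference between PND5 and GD20 corn oil litters (x axis) for the 40 tested members (y axis), with GD20 controls of the DBP100 study (circles) or of the DBP500 study (squares); filled symbols passed at an adjusted p under 0.05. Slc43a3 and Slc6a14 lie far to the right and Slc7a3 far to the left with either control group, whereas Slc43a1 is at 0.05 or -0.83.

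As a description, heavy and light chains were also set against each other array by array, after subtracting group means. Over 43 arrays, Slc3a2 and Slc7a5 had a Pearson r of 0.32 (permutation p = 0.0689) and a Spearman rho of 0.40 (permutation p = 0.0159). Adjusted over the 13 relations computed, these became p = 0.516 and p = 0.207 by permutation, so the relation did not pass. Without the 2 arrays farthest from the median r was 0.49, and by study or array set it was 0.49 and 0.85 at GD20 and 0.08 and 0.50 at PND5. None of the other 12 relations, of Slc3a2 and Slc3a1 with further light chains and of Asns with the 8 targets, passed either.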

How the data were processed

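Foreskin RNA was measured on 43 Illumina arrays in 7 groups, each array holding 2 pooled foreskins of a litter, per the labels. Per the file headers, the deposited scanner tables give each probe an average intensity together with a p-value of detection, and the arrays had not been normalized to each other. The authors' processed values, deposited beside them, were normalized within each study and served as an alternative. The scanner software is not given in the sources used here.

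Members and gene lists were chosen with earlier results of these data known. Signals were background-corrected from detection p-values (normexp, offset 16), quantile-normalized over 43 arrays and taken to log2 with limma 3.58.1 in R 4.3.3. Probes detected (p under 0.05) on at least 5 arrays were tested, 13577 of 22523. One mean per group was fitted with limma's lmFit and eBayes, and p-values were Benjamini-Hochberg adjusted within each of 9 comparisons. Intervals are 95% from the moderated fit. Probes of a gene were kept apart; of 22523 probes, 13793 had 1 gene symbol, 0 several and 8730 none. Named were members that passed (beyond 24, the 12 largest rises and falls), otherwise the 5 of smallest p, plus targets and chain partners. A limit of detection is, per array, the lowest signal among detected probes.

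On simulated data, 26.9% of log2 changes of 0.5 and 86.6% of changes of 1 were recovered in the GD20 DBP500 comparison over 13577 probes, and 61.2% and 95.5% at PND5. The simulated noise was drawn independently for each probe and array at the fitted spread, without array sets, and most probes were left unchanged. These rates need not hold for the real arrays. Replicate numbers were not used to pair samples in the main fit. Same-numbered residuals correlated above 0.1 in 1 of 5 (DBP100 study), 1 of 5 (DBP500 study) and 5 of 21 pairs (PND5). Different-numbered ones did so in 6 of 25, 2 of 25 and 16 of 126. Counts this small cannot exclude a pairing. Alternatives changed the normalization, the background correction, the detection filter, the arrays fitted, the controls, blocks and single arrays. Replicates are separate litters only as far as the labels say, and p-values measure the spread between them.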

Additional observations from a re-analysis of the deposited data

Results flagged for a closer look

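In 5 of 147 combinations of a named gene and a group of 4 to 10 arrays, 1 array stood away from the rest by Dixon's 95% criterion, which chance alone meets in about 1 in 20 groups. Slc3a2 in GD20 DBP500 replicate 1 was at 11.17, where the other 4 litters lay between 11.52 and 11.59. Slc38a4 in PND5 DBP100 replicate 3 was at 8.75, against 9.04 to 9.22 in the others. Slc6a6 in corn oil replicate 4 of the DBP100 study was at 6.43, against 7.24 to 7.51. Slc16a10 in GD20 DBP100 replicate 4 was at 5.89, against 6.66 to 6.83. Slc1a2 in corn oil replicate 3 of the DBP100 study was at 6.50, against 6.23 to 6.33.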

How the results depend on the processing

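Age cannot be told apart from study and array set, and GD20 dose is tied to study. Over the named genes, 564 of 614 values kept direction and call under the alternatives other than single arrays left out. Of the rest, 36 lost the call, 6 gained it and 8 turned sign. Where a member had not passed, keeping the call means only that it still did not pass, and its size could change. The Slc1a2 difference between the ages counts as kept in all 8 alternatives, at -0.84 to -0.29. The DBP500 calls at PND5 were lost in 7 of 10 alternatives (Slc6a6) and 5 of 10 (Slc7a5). For DBP500 at GD20 the count of members that passed was 3 with the authors' processed values and 2 with pooled controls, and for DBP100 at GD20 1 with the authors' values. For DBP500 at PND5 it was 0 with a median shift, without the detection filter, with the compared arrays alone, with the replicate number as a block and within replicates 5 to 7, and 1 without background correction or with the authors' values. The DBP500 and DBP100 doses at PND5 differed for 2 members within replicates 1 to 4, and the GD20 controls for 4 with a median shift. Leaving out single arrays gave 0 to 1 (DBP500, GD20), 0 to 2 (DBP100, GD20), 0 to 3 (DBP500, PND5), 0 to 1 (ages of the DBP500 effect), 22 to 26 (age) and 9 to 11 (GD20 controls), and 0 to 0 elsewhere. Signs turned for Slc1a5 at GD20 DBP500 (0.02 with a median shift, 0.04 with pooled controls, -0.06 to 0.04 without single arrays), Slc7a7 at GD20 DBP100 (-0.01, pooled controls), Slc38a2 at PND5 DBP500 (0.06 with a median shift, 0.06 in replicates 1 to 4, -0.06 to 0.03 without single arrays), Slc3a2 there (-0.01 in replicates 5 to 7, -0.03 to 0.13 without single arrays), Slc7a3 there (-0.11 in replicates 1 to 4) and Slc43a1 with age (0.05, DBP100 study controls, an alternative chosen after seeing the data). Single arrays left out aside, probes called in the whole table ran from 7 (median shift) to 106 (pooled controls) around 41 for DBP500 at GD20. For DBP100 at GD20 they ran from 0 (the compared arrays alone) to 165 (replicate block) around 80. For DBP500 at PND5 they ran from 0 (replicates 5 to 7) to 910 (replicates 1 to 4) around 498. The causes were not tested. The replicate block changed no other count of member calls. Neither it nor the authors' values, normalized within studies, could serve the age and control comparisons.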
